A study of Mus musculus with 74 samples.

Results

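Epithelium of the small intestine was compared at embryonic day 16 (E16) between mouse embryos in which the gene for the transcription factor Cdx2 had been deleted at E10 and wild type (WT) embryos. Membership followed the sample titles, which name 3 RNA-seq libraries of the deletion and 2 of the WT. These 5 libraries are part of 31 RNA libraries and 74 samples in the series. Some values below also use WT libraries of E12 and E18, and intestine with Cdx2 deleted at E13 or E15, collected at E16 and E18. The Cre line, strain and treatment of these later deletions are not given here. The deletion embryos carried Cdx2f/f with Shh-Cre on a mixed B6;129 background, and the WT embryos were CD1, an outbred stock. Neither group had been treated. Cells of both groups, and of the E14 and E16 WT organs set beside them, were freed by trypsin digestion, and those carrying Epcam, an adhesion protein on the surface of epithelial cells, were kept by sorting. No group of littermates without Cre was used here, so strain and genotype cannot be told apart in any difference given below. The labels do not say whether a library came from 1 embryo or from a pool. The p-values rest on a spread between libraries that was estimated over all 27 embryonic RNA libraries in 13 groups. They do not measure the spread of the deletion group by itself, nor any spread beyond that between libraries.

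Cdx2 is a homeodomain transcription factor that the gut endoderm posterior to the stomach turns on as the gut tube is patterned, and its relative Cdx1 follows in the same cells. In the developing intestine Cdx2 binds near many genes of the enterocyte, the absorptive cell of the villus, and works beside Hnf4 and Gata factors. Anterior to it, Sox2 marks the endoderm of the oesophagus and stomach, where the forestomach forms a stratified squamous lining and the hindstomach a glandular one. Shh-Cre expresses the Cre recombinase wherever the gene Shh is active, and the early gut endoderm is such a site.

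Cdx2 itself stood at 17.4, 14.5 and 27.5 CPM (read counts scaled to library size by TMM) in deletion replicates 1 to 3 and at 196 and 218 CPM in WT replicates 1 and 2. The groups did not overlap, and replicate 3 held the most of the deletion libraries. The log2 fold change of the deletion over WT was -3.40 (SE 0.27, adjusted p 3.04e-09), by edgeR's quasi-likelihood test with Benjamini-Hochberg adjustment, the test behind every adjusted p below. A gene was called higher or lower where this adjusted p was below 0.05 and the log2 fold change was at least 1 in size. Whole-gene counts cannot show which exons the remaining reads came from. In E16 WT hindstomach Cdx2 stood at 12.6 ± 0.662 CPM (SD, n = 2), and the deletion libraries differed from it by a log2 fold change of 0.64 (SE 0.28, adjusted p 0.0521), which was not called.

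After the deletion, genes of the absorptive intestine were mostly lower and genes of the stomach and of squamous epithelium mostly higher. Of 25 intestinal transcription factors 16 fell, and of 20 brush border genes 19 fell, where 27.6% of all genes tested fell. Of 22 foregut transcription factors 15 rose, of 28 genes of the glandular stomach 23 and of 31 squamous genes 24, where 23.9% of all genes tested rose. Goblet and Paneth genes moved in both directions, the shares of cell cycle and BMP genes called either way lay near those of all genes, and the fatty acid binding proteins Fabp1 and Fabp2 overlapped between the groups.

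The start sites of Cdx2, of Isx, an intestinal homeobox factor that fell, and of Sox2, a foregut factor that rose, are shown because the results below turn on these 3 genes. That of Slc3a1, a subunit of an amino acid transporter that fell, is shown for a match to a Cdx motif and was chosen after its values were seen. Each is the 250 bases before the start, on the coding strand, from RefSeq (GRCm38.p6). Capitals mark a match to TTTATGG or TTTATTG, 2 forms of the Cdx motif, searched on both strands, of which only the Slc3a1 window holds 1, beginning 73 bases before the start.
Cdx2, chr5:147307250-147307499, minus strand: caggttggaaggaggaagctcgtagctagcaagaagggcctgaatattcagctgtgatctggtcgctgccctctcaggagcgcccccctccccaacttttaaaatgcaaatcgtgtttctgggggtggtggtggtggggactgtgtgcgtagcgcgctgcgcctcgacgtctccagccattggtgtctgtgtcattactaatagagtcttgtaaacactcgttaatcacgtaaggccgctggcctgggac
Isx, chr8:74872924-74873173, plus strand: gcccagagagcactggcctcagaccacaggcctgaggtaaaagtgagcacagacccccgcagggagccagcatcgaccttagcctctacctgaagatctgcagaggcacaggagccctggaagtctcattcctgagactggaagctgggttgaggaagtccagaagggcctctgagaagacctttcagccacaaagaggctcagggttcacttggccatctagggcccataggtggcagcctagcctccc
Sox2, chr3:34649745-34649994, plus strand: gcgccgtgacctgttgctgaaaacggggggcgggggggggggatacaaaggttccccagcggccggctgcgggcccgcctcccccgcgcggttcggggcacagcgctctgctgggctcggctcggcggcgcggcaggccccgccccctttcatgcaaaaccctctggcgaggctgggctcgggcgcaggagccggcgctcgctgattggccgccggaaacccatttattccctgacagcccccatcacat
Slc3a1, chr17:85028097-85028346, plus strand: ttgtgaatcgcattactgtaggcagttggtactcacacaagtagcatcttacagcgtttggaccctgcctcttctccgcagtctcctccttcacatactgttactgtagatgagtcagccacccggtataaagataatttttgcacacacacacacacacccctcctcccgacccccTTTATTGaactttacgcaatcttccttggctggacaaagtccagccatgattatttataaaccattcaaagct
The motif occurred in 2139 of 32851 such windows, or 6.51%. It occurred in 5.20% of the genes called higher that have a window, 4.95% of those called lower and 5.15% of those not called. Among the 79 genes called lower in the 4 enterocyte lists described below, 58 had a window and 4 of these held the motif. A match is a description of letters and not a binding site.

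The libraries held 12812432 to 22997638 counts in the deletion group and 16685602 and 18306362 in WT. A single gene, Cym, took 8.26 to 11.7% of the counts in the deletion libraries and 0.0119 and 0.0126% in WT. The TMM factors were 0.542 to 0.651 in the deletion libraries and 1.09 and 1.10 in WT. Spearman correlations over genes were 0.959 to 0.976 between deletion libraries, 0.985 between the WT libraries and 0.805 to 0.832 between groups. No pair of replicates agreed within sampling noise, so each counts as a library of its own. The epithelial marker Epcam, a cell adhesion protein and the antigen of the sort, was abundant in all 5 libraries, at 2438, 2132 and 1849 CPM in the deletion and 1284 and 1291 CPM in WT. Of 8 epithelial markers, Epcam among them, 2 were called higher, 2 lower and 4 not called, with log2 fold changes from -1.59 to 2.51. Of 17 markers of mesenchyme and muscle, 11 were called lower and 1 higher, and their summed level was 228 to 352 CPM in the deletion and 1592 and 1741 CPM in WT. The collagen gene Col1a1 stood at 1.2, 2.26 and 7.16 CPM against 326 and 288 CPM, while the smooth muscle actin Acta2 stood at 80.3, 104 and 132 against 91.4 and 105 CPM and was not called. Of 7 endothelial, 10 neural and glial, and 10 blood and immune markers, 4, 7 and 5 were called lower and none higher; the summed levels of these lists were 4.94 to 17.5, 3.14 to 14.6 and 97 to 398 CPM in the deletion and 44.7 and 52.8, 68.2 and 78.7, and 428 and 412 CPM in WT. The highest blood and immune sum of the deletion, in replicate 2, was thus close to WT, and without deletion replicate 3 only 2 endothelial markers were lower. The globin Hba-a1, a defining marker of blood, was at 3 counts or fewer in each deletion library. It did not pass the filter on low counts and was not tested, so it shows no difference between the groups. The part of other cell types in the differences below was not tested, and in bulk libraries fewer cells of a type and less RNA per cell cannot be told apart. Xist, the RNA of the inactive X chromosome, stood at 0.668, 3.19 and 82.8 CPM in deletion replicates 1 to 3 and at 42.8 and 52.2 CPM in WT, so deletion replicates 1 and 2 stood apart in it, and it was called lower without replicate 3, at -4.70. The Y-linked gene Eif2s3y was found in every library, at 108, 103 and 24.6 CPM in the deletion and 14.3 and 19 CPM in WT.

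Of 17239 genes tested, 8875 were called, or 51.5%, of which 4122 were higher in the deletion (23.9% of all tested) and 4753 lower (27.6%). These shares are the background for every count of members below. The groups did not overlap in 12230 genes, or 70.9% of those tested, and in the longer lists called genes were named from those without overlap, so that a lack of overlap in them is no result. Over all genes the median was -0.10 (log2). The share higher among the called was 46.4%, and it became 50.7% with RLE scaling, 51.2% with DESeq2 and 51.4% with deletion replicate 3 as the only deletion library, so which direction held more calls depended on these settings.

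Among transcription factors of the intestinal epithelium, most were lower after the deletion. Of 25 listed and tested, 16 fell, 6 rose and 3 were not called, with a median log2 fold change of -2.21. Cdx1, the paralogue of Cdx2, stood at 2.4, 2.18 and 10.6 CPM in the deletion and 324 and 299 CPM in WT (log2 fold change -6.06, SE 0.56, adjusted p 2.37e-08). Isx stood at 0.735, 1.68 and 12.8 CPM against 118 and 124 CPM, with a log2 fold change of -4.74 (SE 0.64, adjusted p 3.42e-06). Creb3l3, a membrane-bound factor of lipid and glucose metabolism, stood at 4.27, 3.1 and 20.4 CPM against 319.9 and 321 CPM, with a log2 fold change of -5.22 (SE 0.47, adjusted p 1.83e-08). In each of these 3 genes the deletion libraries lay far below both WT libraries, and deletion replicate 3 held the most. Prdm1, a repressor that holds back the adult enterocyte programme before weaning, went from 89.4 and 70.5 CPM in WT to 1.67, 2.01 and 3.58 CPM, a log2 fold change of -5.11 (SE 0.24, adjusted p 2.44e-12). The nuclear receptor Hnf4a, picked like Gata4 after its values were seen, stood at 23.7, 23.3 and 44.7 CPM against 389 and 349 CPM, with a log2 fold change of -3.61 (SE 0.33, adjusted p 1.02e-08). Gata4, a zinc finger factor of the proximal intestine, stood at 36.4, 50.2 and 71.1 CPM against 215 and 230.1 CPM (-2.09 (SE 0.19, adjusted p 1.28e-08)).

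Not every intestinal factor fell. Onecut2 was the member that rose most, from 21.8 and 16.8 CPM in WT to 197, 216 and 262 CPM in the deletion, a log2 fold change of 3.54 (SE 0.24, adjusted p 2.21e-10). Pdx1, a factor of duodenum, antrum and pancreas, stood at 37.8, 28.6 and 25.7 CPM against 4.23 and 6 CPM, with a log2 fold change of 2.59 (SE 0.43, adjusted p 3.38e-05). Both were also higher in the deletion than in E16 hindstomach, where they stood at 15.9 ± 1.62 CPM (SD, n = 2) and 8.4 ± 1.22 CPM (SD, n = 2). The epithelial Krüppel-like factors Klf4 and Klf5 and the ETS factor Elf3 rose by log2 fold changes of 1.42, 1.28 and 1.17 (adjusted p 2.02e-06, 2.3e-06 and 0.000363), and without deletion replicate 1 Elf3 was not called, at 0.70. The endoderm factors Gata5 and Gata6 were not called: Gata6 stood at 100.2, 103 and 97.9 CPM against 128 and 141 CPM, and Gata5 at 38.4, 29.2 and 27 against 33.2 and 31.1 CPM, where the groups overlapped. Nr1i2, a receptor that senses bile acids and drugs, overlapped as well, with a log2 fold change of 0.16 (SE 0.35, adjusted p 0.719).

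Transcription factors of the stomach and oesophagus went mostly the other way. Of 22 tested, 15 rose, 1 fell and 6 were not called, with a median log2 fold change of 3.11, or 2.83 with genes at the floor in a group set to their lower bound. The floor is 3 counts in a library. Sox2 stood at 66.4, 70.7 and 51.3 CPM in the deletion libraries and at 0.805 and 0 CPM in WT (log2 fold change 7.22, SE 0.61, adjusted p 1.39e-08). Its level in E16 forestomach was 38.4 ± 4.25 CPM (SD, n = 2) and in E16 hindstomach 28.7 ± 5.16 CPM (SD, n = 2). The related factor Sox21 stood at 37.2, 39.5 and 50.5 CPM in the deletion against 0.0503 and 0 CPM in WT, where it was at the floor, and was at least 269.5-fold (adjusted p 1.25e-08) higher. The Iroquois homeobox factor Irx5 stood at 16.4, 17.6 and 19.4 CPM and had no count in either WT library, so it was at least 113-fold (adjusted p 6.6e-10) higher. In all 3 genes every deletion library stood far above both WT libraries, and the deletion libraries lay close together.

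Set beside the E16 stomach, the foregut factors differed in the level they reached. Trp63, the p53 relative that marks the basal layer of squamous epithelium, stood at 21.1, 19.5 and 7.9 CPM in the deletion with no WT count, at least 103-fold (adjusted p 9.41e-07) higher than WT. That was lower than the 82 ± 6.58 CPM (SD, n = 2) of E16 forestomach, by a log2 fold change of -2.32 (SE 0.47, adjusted p 0.000341), and replicate 3 held the least. Tfap2c, a factor of squamous and surface ectoderm, stood at 3.94, 3.19 and 0.371 CPM, where 2 libraries were near 3 or 4 CPM and replicate 3 was at the floor, against 28 ± 9.51 CPM (SD, n = 2) in E16 forestomach. By contrast Irx5 and Sox2 did not differ by a call from E16 forestomach, with log2 fold changes of 0.03 (SE 0.33, adjusted p 0.949) and 0.71 (SE 0.40, adjusted p 0.124). Pitx1, a homeobox factor of the stomach picked after its values were seen, stood at 315, 282 and 246 CPM in the deletion against 21.2 and 26.5 CPM in WT (3.56 (SE 0.26, adjusted p 6.3e-10)) and at 442 ± 55.6 CPM (SD, n = 2) in forestomach. Gata3, a zinc finger factor with a role in squamous epithelium, was the member that fell, from 3.37 and 1.8 CPM to 0.401, 0.168 and 0 CPM (-3.55 (SE 0.64, adjusted p 8.07e-05)), and 2 members fell without deletion replicate 1. The repressor Foxp1, the stomach factor Nkx6-3 and the pharyngeal factor Tbx1 were not called, with log2 fold changes of 0.96, 1.51 and -2.43. Foxp1 was just past the fold minimum without deletion replicate 1, deletion replicate 2 or WT replicate 2, at 1.02, 1.02 and 1.12, and with RLE scaling and DESeq2, at 1.10 in both. Nkx6-3 was called higher with RLE scaling, in DESeq2 and in a fit of the 5 libraries alone, at 1.65, 1.64 and 1.52. Tbx1 was called lower without deletion replicate 1, at -4.84.

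**Figure D1:**
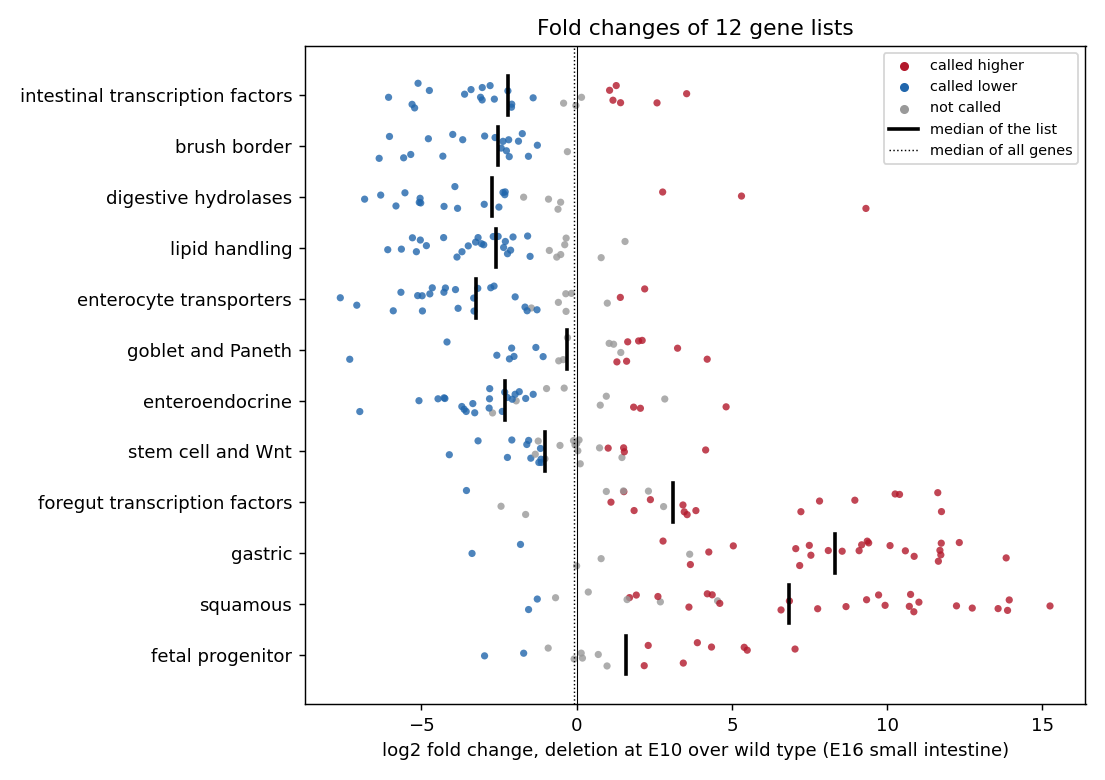
Log2 fold change of the E10 deletion over WT at E16 (x axis) for every tested member of 12 gene lists (y axis). Each point is a gene coloured by its call, black bars are list medians and the dotted line is the median of all genes. The stomach and squamous lists lie to the right, with medians of 8.33 and 6.85, and the enterocyte lists to the left, with medians from -3.24 to -2.53.

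The enterocyte genes were lower as a group. Of 20 genes of the brush border, the carpet of microvilli on the apical face, 19 fell and none rose. Cdhr2 and Cdhr5, the cadherins that link microvilli at their tips, stood at 11.6, 6.71 and 5.68 and 2.67, 2.68 and 14.7 CPM in the deletion, against 350.2 and 315 and 408 and 390.5 CPM in WT. Their log2 fold changes were -5.34 (SE 0.31, adjusted p 6.35e-11) and -6.03 (SE 0.60, adjusted p 3.55e-08). Myo7b, the myosin bound to these links, and Ush1c, their scaffold protein, had log2 fold changes of -6.36 (SE 0.47, adjusted p 1e-09) and -4.77 (SE 0.47, adjusted p 5.42e-08). Cdh17, an intestinal cadherin, stood at 16.2, 18.1 and 27 CPM against 989 and 936 CPM (-5.57 (SE 0.81, adjusted p 6.02e-06)). In each of these 5 genes the groups lay far apart, and in all but Cdhr2 deletion replicate 3 held the most. Tmigd1, an adhesion protein, was the member not called, at 0.334, 3.02 and 0 against 1.31 and 1.47 CPM, near the floor in deletion replicates 1 and 3.

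Of 22 digestive enzymes and related apical proteins, 15 fell, 3 rose and 4 were not called, with a median log2 fold change of -2.74. Lct, the lactase of the suckling intestine, stood at 3.47, 6.63 and 7.53 CPM in the deletion and 483 and 423 CPM in WT (log2 fold change -6.31, SE 0.32, adjusted p 1.33e-11). Alpi, the alkaline phosphatase of the brush border, stood at 12.8, 16.7 and 29.3 CPM against 676 and 615 CPM (-5.07 (SE 0.50, adjusted p 8.91e-08)). The peptidases Naaladl1, Mep1a and Xpnpep2 fell by 6.83, 5.82 and 5.53 on the log2 scale (adjusted p 2.36e-09, 1.1e-05 and 6.21e-07), and each was highest in replicate 3 among the deletion libraries. The 3 members that rose were Sis, Treh and Tmprss15, the enteropeptidase that activates trypsin. Sis, the sucrase-isomaltase of the weaned intestine, was picked after its values were seen: it stood at 64.3, 76.8 and 0 CPM in the deletion against 7.14 and 6.82 CPM in WT, so its groups overlapped and replicate 3 had no count. Its log2 fold change was 2.77 (SE 1.05, adjusted p 0.0343), and it was not called without deletion replicate 1 or 2 or either WT library, with values of 2.32 to 2.80, nor in DESeq2, at 2.89 (adjusted p 0.451). Treh, a trehalase, was at the floor in all 5 libraries, so its call carries no fold. With replicate 3 as the only deletion library no member rose and 17 fell.

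Genes of fat handling and of uptake were lower in the same way, with named exceptions. Of 30 genes of lipid handling 23 fell and none rose, with a median of -2.61. Mttp and Apob, which load triglyceride into chylomicrons, stood at 38.9, 40.8 and 52.4 and 20.8, 31.5 and 28.7 CPM in the deletion against 1750.3 and 1677 and 959 and 804 CPM in WT, with log2 fold changes of -5.29 (SE 0.20, adjusted p 3.01e-13) and -5.03 (SE 0.33, adjusted p 1.27e-10). The cholesterol importer Npc1l1 stood at 2.74, 1.26 and 1.85 against 145 and 127 CPM (-6.08 (SE 0.60, adjusted p 3.32e-08)). Of the abundant lipid carriers some did not pass: Apoa1 stood at 1435, 1786 and 1583 against 2541 and 2447 CPM, a log2 fold change of -0.64 (SE 0.15, adjusted p 0.00128), though it was called lower with an offset for gene length, at -2.09. The fatty acid binding proteins Fabp1 and Fabp2 stood at 561, 1201 and 2594 and at 955, 1620.0 and 865 CPM in the deletion, against 1855 and 1813 and 1496 and 1495 CPM in WT, and both overlapped. Without deletion replicate 3 Fabp1 was called lower, at -1.06. In E16 hindstomach Fabp1 and Fabp2 stood at only 64.3 ± 0.65 CPM (SD, n = 2) and 27.8 ± 1.2 CPM (SD, n = 2), so the deletion libraries were above that tissue by log2 fold changes of 4.50 (SE 0.46, adjusted p 5.01e-08) and 5.37 (SE 0.29, adjusted p 6.81e-12).

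Of 30 transporters of the enterocyte 22 fell, 2 rose and 6 were not called, with a median of -3.24. Slc7a8, an amino acid exchanger, stood at 0.468, 1.01 and 7.9 CPM against 371 and 341 CPM (-7.08 (SE 0.56, adjusted p 1.79e-09)). Slc3a1 stood at 3.07, 2.01 and 3.21 against 143 and 135 CPM (-5.66 (SE 0.44, adjusted p 2.3e-09)), and Slc6a20a, a proline transporter, at 0.801, 0.419 and 1.36 against 52.3 and 45.5 CPM (-5.91 (SE 0.66, adjusted p 2.84e-07)). The sodium-proton exchanger Slc9a3 stood at 0.267, 0 and 0 against 26.4 and 19.8 CPM (-7.61 (SE 0.59, adjusted p 1.63e-07)), and in DESeq2 it was at -7.84 (adjusted p 0.0645) and not called. In these 4 genes every deletion library was under 8 CPM and below both WT libraries. The calcium channel Trpv6 rose from 1.26 and 1.31 to 4.68, 2.68 and 2.59 CPM (1.41 (SE 0.53, adjusted p 0.028)), a call lost without deletion replicate 1, WT replicate 1 or WT replicate 2, at 1.04, 1.37 and 1.43. The Trpv6 call was also lost in a fit of the 5 libraries alone, at 1.39, and with these libraries thinned to the shallowest total, at 1.23. Thus 1 transporter was called higher without deletion replicate 1 or 2, and none without either WT library. S100g, the calcium-binding protein of the same cells, was just short of the fold minimum at 199, 384 and 129 against 120.0 and 119.7 CPM (0.99 (SE 0.32, adjusted p 0.0115)), and past it without deletion replicate 1 or 3, at 1.10 and 1.28. Cybrd1, a reductase of iron, and Slc46a1, a haem and folate carrier, overlapped, with log2 fold changes of -0.34 and -0.17. Across the whole solute carrier family, 151 of 325 tested genes fell and 30 rose.

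**Figure D2:**
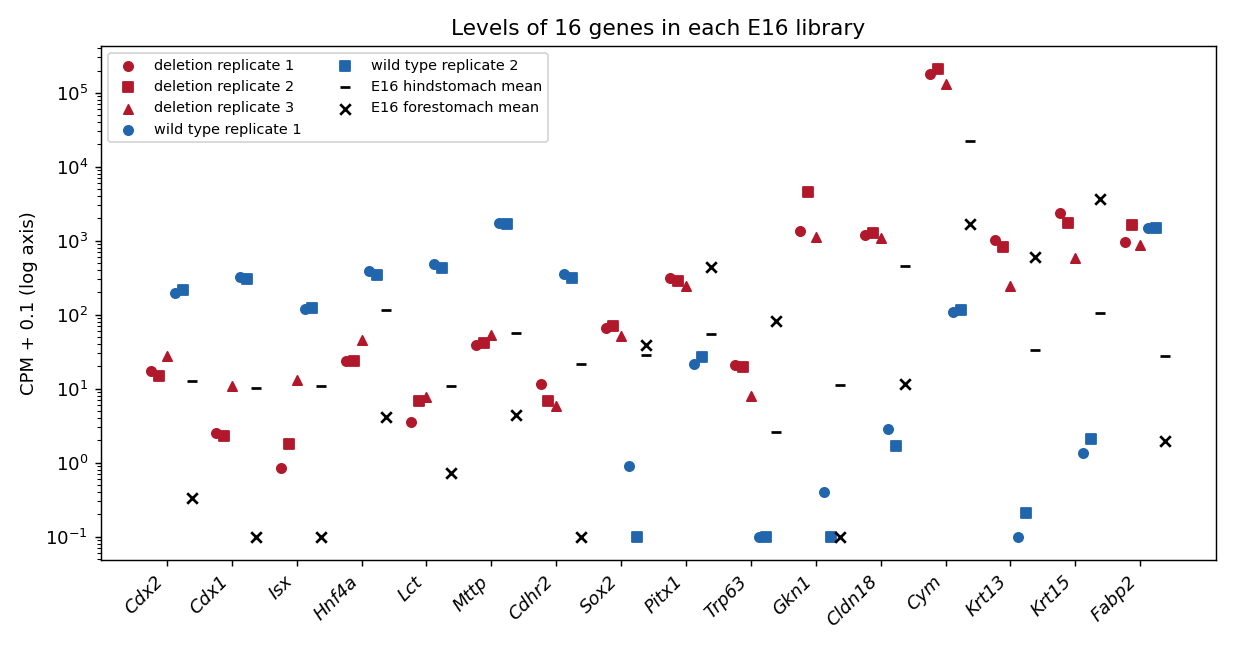
Level of 16 genes (x axis), chosen after their values were seen, in each library as CPM + 0.1 on a log axis. Red symbols are the 3 deletion libraries, blue symbols the 2 WT libraries, and black marks the means of E16 hindstomach and forestomach. Enterocyte and intestinal factor genes are lower in red than in blue, the stomach and squamous genes are higher, and Fabp2 overlaps.

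Genes of the secretory lineages also moved in both directions. Of 21 goblet and Paneth genes 7 rose, 8 fell and 6 were not called, with a median of -0.29. Muc2, the gel mucin of intestinal goblet cells, stood at 8.75, 7.8 and 1.11 CPM in the deletion against 32.1 and 23.9 CPM in WT (-2.16 (SE 0.58, adjusted p 0.00307)), a call lost in DESeq2, at -2.10 (adjusted p 0.113), and Retnlb, a goblet cell protein, at 0.601, 1.68 and 0 against 125 and 132 CPM (-7.31 (SE 0.85, adjusted p 3.05e-06)). Fcgbp, a mucus protein, went from 1325 and 1072 CPM to 220.3, 338 and 284 CPM (-2.09 (SE 0.41, adjusted p 0.000177)). In contrast Agr2, a disulphide isomerase that mucin folding needs, stood at 1337, 2408 and 1846 CPM against 489 and 446 CPM (2.00 (SE 0.60, adjusted p 0.00681)), and Spdef, a factor of goblet maturation, at 107, 61.2 and 46.4 against 23.7 and 23.3 CPM (1.61 (SE 0.36, adjusted p 0.000645)). These 5 genes, like 70.9% of all tested, did not overlap between the groups, though Agr2 was not called without WT replicate 2, at 1.93. Zg16, a lectin of goblet granules, differed between the deletion libraries more than between groups, at 243, 418 and 5.19 CPM against 106 and 88.7 CPM, and was not called, but it was called higher without replicate 3, at 1.76. The count of members higher was 3 with replicate 3 as the only deletion library and 4 without either WT library.

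Mucins moved in both directions. Of 9 tested, 5 rose, 2 fell and 2 were not called. The gastric surface mucin Muc5ac stood at 21.2, 18.8 and 11 CPM and Muc5b, another gel mucin, at 20.6, 26.7 and 25.2 CPM, with no count of either in WT, at least 108-fold (adjusted p 1.02e-07) and 153-fold (adjusted p 4.32e-05) higher. The membrane mucin Muc1 stood at 416, 315 and 245 CPM against 9.61 and 10.1 CPM (5.05 (SE 0.28, adjusted p 1.38e-11)), close to 316 ± 26.2 CPM (SD, n = 2) in E16 hindstomach, from which it differed by 0.04 (SE 0.21, adjusted p 0.875). Muc13, the membrane mucin of the enterocyte, went the other way, at 18.1, 24.8 and 36.2 CPM against 932 and 931 CPM (-5.16 (SE 0.64, adjusted p 1.21e-06)). Muc6, the mucin of gastric glands, rose to 5.88, 10.3 and 5.68 CPM from 0.755 and 0.382 CPM (3.66 (SE 0.63, adjusted p 5.22e-05)) and was lower than in E16 hindstomach, at 30.5 ± 0.503 CPM (SD, n = 2) (-2.06 (SE 0.49, adjusted p 0.00117)).

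Hormone and enteroendocrine genes were mostly lower, and varied between deletion libraries. Of 31 tested 21 fell, 3 rose and 7 were not called, with a median of -2.32. The summed level of the list was 121, 333 and 956 CPM in deletion replicates 1 to 3 and 1001 and 949 CPM in WT, so replicate 3 lay at the WT level in the sum. Tph1, the enzyme of serotonin synthesis, was at the floor in each deletion library and stood at 11.4 and 12.5 CPM in WT, at least 43.6-fold (adjusted p 3.17e-05) lower. Chgb, a protein of secretory granules, stood at 2.2, 7.97 and 33.3 CPM against 337 and 266 CPM (-4.46 (SE 0.56, adjusted p 8.93e-07)), and the peptide hormone gene Tac1 at 0.134, 0.755 and 7.53 against 38.6 and 28.7 CPM (-3.70 (SE 1.06, adjusted p 0.00506)). Replicate 3 held more of both than replicates 1 and 2. Sst, somatostatin, and Pyy, peptide YY, were not called and spanned the WT level, at 8.08, 41.4 and 119.9 against 28.3 and 29.6 CPM and 6.14, 20.2 and 77.8 against 20.3 and 20.1 CPM. Gast, gastrin of the gastric antrum, rose from 0.252 and 0.273 CPM to 1.27, 15.9 and 5.43 CPM (4.81 (SE 1.07, adjusted p 0.000779)), and the islet factor Isl1 from 5.23 and 5.19 to 16.8, 17.1 and 22.1 CPM (1.84 (SE 0.75, adjusted p 0.0397)). Isl1 lost its call without deletion replicate 1, deletion replicate 3 or either WT library, with values of 1.70 to 1.91, and Pyy gained one without deletion replicate 1, at 1.27. With replicate 3 as the only deletion library Sst and Pyy were called higher, at 2.15 and 2.04 (adjusted p 0.0246 and 0.000494), and the list had 9 genes lower and 4 higher.

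Tuft cell genes were low in both groups. Of 13 tested 4 fell, 2 rose and 7 were not called, and without deletion replicate 1 only 1 rose. Dclk1, a kinase used as a tuft marker, stood at 0, 0.336 and 0 CPM against 2.21 and 3.77 CPM (-4.64 (SE 0.92, adjusted p 0.000207)), and Ptgs1, a cyclooxygenase, at 1, 3.1 and 1.73 against 15.6 and 16.8 CPM (-3.07 (SE 0.35, adjusted p 2.65e-07)). Ltc4s, an enzyme of leukotriene synthesis, rose from 1.31 and 2.29 to 5.34, 13.3 and 14.6 CPM (2.62 (SE 0.69, adjusted p 0.00284)).

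Genes of the glandular stomach were the list with the largest median change. Of 28 tested 23 rose, 2 fell and 3 were not called, with a median log2 fold change of 8.33, or 7.34 with floor genes at their bound. The list took 8.81 to 12.5% of the counts in the deletion libraries and 0.0178 and 0.0189% in the WT libraries, most of it Cym. Cym, the milk-clotting protease chymosin of the suckling stomach, was picked after its values were seen and stood at 180188, 207649 and 130757 CPM in the deletion against 109.6 and 115 CPM in WT (10.59 (SE 0.41, adjusted p 3.26e-13)). Gkn1 and Gkn2, the gastrokines of the gastric surface epithelium, stood at 1372, 4587 and 1129 and 862, 2269.9 and 435 CPM in the deletion, against 0.302 and 0 and 0.0503 and 0.655 CPM in WT. Their log2 fold changes were 13.83 (SE 0.95, adjusted p 9.04e-09) and 11.74 (SE 1.12, adjusted p 3.71e-08), with replicate 2 the highest. Psca, a surface protein of the stomach lining, stood at 908, 1233 and 359 against 0 and 0.328 CPM (12.32 (SE 0.80, adjusted p 1.02e-10)). Cldn18, the stomach claudin, picked after its values were seen, stood at 1198, 1281 and 1083 against 2.72 and 1.58 CPM (9.10 (SE 0.42, adjusted p 3.36e-12)). The groups did not overlap in any of these 5 genes, as in 70.9% of all genes tested.

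Against E16 hindstomach, 56.3% of all genes were called, 21.6% as higher in the deletion and 34.6% as lower. These values share the deletion libraries with those above. Of the 28 gastric genes, 13 were higher in the deletion than in hindstomach, 8 lower and 7 not called, with a median of 0.71 beside -0.49 for all genes. Gkn1 stood at 11 ± 1.77 CPM (SD, n = 2) in hindstomach, below every deletion library, a log2 fold change of 7.74 (SE 0.67, adjusted p 1.05e-07). For Gkn2 the hindstomach level was 11.3 ± 0.967 CPM (SD, n = 2) and the log2 fold change 6.71 (SE 0.82, adjusted p 9.23e-07). Cym stood there at 22461 ± 986 CPM (SD, n = 2) (2.94 (SE 0.29, adjusted p 2.78e-08)). Fer1l4, a gastric surface gene, did not differ by a call, at 13.6, 24.8 and 14.2 CPM against 17.3 ± 2.76 CPM (SD, n = 2) (0.02 (SE 0.68, adjusted p 0.991)). Capn9, a gastric calpain, was the reverse of most of the list, at 0.735, 0.923 and 0.988 CPM in the deletion, 8.45 and 9.66 CPM in WT intestine (-3.37 (SE 0.71, adjusted p 0.000416)) and 2.34 ± 1.99 CPM (SD, n = 2) in hindstomach. Slc26a7, a parietal cell transporter, had no count in any of the 5 libraries and stood at 2.98 ± 1.08 CPM (SD, n = 2) in hindstomach.

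**Figure D3:**
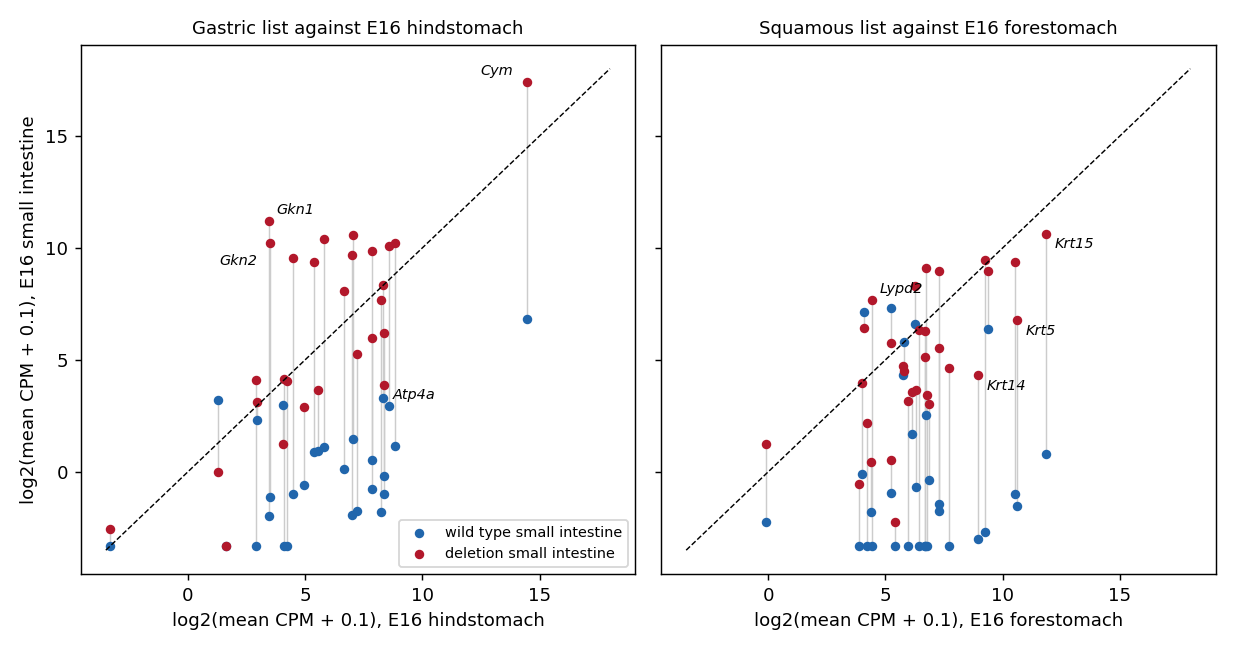
Mean level of the gastric list against E16 hindstomach (left) and of the squamous list against E16 forestomach (right), as log2(mean CPM + 0.1) on both axes. Each gene has a blue point for WT small intestine and a red point for the deletion, joined by a grey line, and the dashed line marks equal levels. Most red points lie far above their blue points, with Gkn1 and Cym above the line on the left and Krt5 and Krt14 below it on the right.

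Genes of stratified squamous epithelium rose as well. Of 31 tested 24 rose, 2 fell and 5 were not called, with a median of 6.85, or 4.79 with floor genes at their bound. Krt13 and Krt4, the keratin pair of squamous layers above the basal one, stood at 1036, 827 and 241 and 1078, 683 and 244 CPM in the deletion, against 0 and 0.109 and 0.302 and 0.491 CPM in WT. Krt13 was at least 4457-fold (adjusted p 1.88e-09) higher and Krt4 had a log2 fold change of 10.71 (SE 0.90, adjusted p 6.54e-09). The basal keratin Krt15 stood at 2383, 1756 and 577 CPM against 1.26 and 1.97 CPM (9.93 (SE 0.63, adjusted p 7.3e-11)). Sprr3, a protein of the cornified envelope, Serpinb5, the serpin maspin, and Lypd3, a surface protein of keratinocytes, had no count in WT and stood at 106, 95 and 32.4, at 111, 95.5 and 35.7 and at 49.5, 41.6 and 14.7 CPM in the deletion. In these 6 genes every deletion library was above both WT libraries, and replicate 3 was the lowest of the 3. Lypd2, a related surface protein, stood at 133, 265 and 204 CPM, at least 1276-fold (adjusted p 4.77e-10) higher than WT. Dsc2 and Itgb4, a desmosome protein and the integrin of the basal attachment, were the 2 that fell, with log2 fold changes of -1.55 (SE 0.55, adjusted p 0.019) and -1.27 (SE 0.18, adjusted p 3.35e-06), and without deletion replicate 1 or WT replicate 1 only Itgb4 fell, Dsc2 being at -1.37 and -1.42.

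Against E16 forestomach, 53.3% of all genes were called, 24.7% as higher in the deletion and 28.7% as lower. Of the 31 squamous genes, 5 were higher in the deletion, 18 lower and 8 not called, with a median of -1.25 beside -0.07 for all genes. Basal keratins were below the forestomach level: Krt5, picked after its values were seen, stood at 172, 122 and 30.8 CPM in the deletion and 1546 ± 268 CPM (SD, n = 2) in forestomach (-3.83 (SE 0.64, adjusted p 3.91e-05)). Krt14, its partner, stood at 34.6, 22.6 and 2.35 CPM and 492 ± 61.8 CPM (SD, n = 2) (-4.60 (SE 0.73, adjusted p 2.39e-05)). Krt13 and Sprr3 were not called there, with forestomach levels of 610.1 ± 36.5 CPM (SD, n = 2) and 103 ± 4.4 CPM (SD, n = 2). Lor, loricrin of the cornified envelope, stood at 0.134, 1.85 and 2.1 CPM in the deletion and at 38 ± 2.71 CPM (SD, n = 2) in forestomach (-4.85 (SE 0.73, adjusted p 8.72e-06)), and did not pass against WT intestine (1.62 (SE 0.79, adjusted p 0.0811)) but was called higher without deletion replicate 1, at 2.21, in DESeq2, at 1.78, and with replicate 3 as the only deletion library, at 2.39. All 17 mesenchyme and muscle markers were called lower in the deletion than in E16 forestomach, and all 17 lower than in hindstomach, and their part in these differences was not tested.

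Whole gene families differed in their counts, and some lay near the shares of all genes, 23.9% higher and 27.6% lower. Of 30 keratins 21 rose and none fell (1 fell without deletion replicate 3), with a median of 3.91, and Krt34, a keratin known from hair, stood at 73.4, 91.9 and 58 CPM with no count in WT, at least 473-fold (adjusted p 1.88e-05) higher. Krt8, the keratin of simple epithelium, overlapped, at 6132, 3718 and 2665 against 3515 and 3297 CPM. Of 20 claudins, the proteins that set the permeability of tight junctions, 7 fell and 4 rose. Cldn2, a cation pore, stood at 3.47, 3.52 and 17.8 CPM against 301 and 298 CPM (-5.29 (SE 0.48, adjusted p 9.46e-09)), and Cldn15, the sodium pore of the intestine, at 3.67, 6.04 and 5.31 against 64.6 and 59.9 CPM (-3.65 (SE 0.34, adjusted p 1.81e-08)). Cldn6, a claudin of embryonic epithelium, rose from 4.98 and 9.22 to 187, 106 and 164 CPM (4.43 (SE 0.26, adjusted p 3.63e-11)). Of 7 gasdermins, a family of pore-forming proteins, 6 rose, and Gsdmc2 stood at 58.7, 47.1 and 28.8 CPM against 0 and 0.437 CPM (7.69 (SE 0.92, adjusted p 6.74e-07)), beside 64.6 ± 0.442 CPM (SD, n = 2) in hindstomach. Of 12 glucuronosyltransferases, which conjugate drugs and bilirubin, 8 fell and 2 rose. Ugt2b5 stood at 5.28, 3.94 and 11.1 against 143 and 154 CPM (-4.50 (SE 0.35, adjusted p 2.4e-09)). Of 64 cytochromes P450 18 rose and 14 fell, or 28.1% and 21.9%, near the shares of all genes, and 8 rose with replicate 3 as the only deletion library. Of 17 Sox genes 5 rose and 4 fell, or 29.4% and 23.5%, near the shares of all genes. The count of Sox genes that fell was 2 without deletion replicate 1 or 2 and 1 without WT replicate 1. Of 42 Gata and Fox genes 6 rose and 15 fell, and of 13 Serpinb genes, a family of protease inhibitors, 6 rose and 1 fell.

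Hedgehog signalling showed a ligand that rose beside receptors and targets that fell. Shh, the ligand whose regulatory sequence drives the Cre, stood at 16.9, 38.8 and 21.5 CPM in the deletion against 6.09 and 9.93 CPM in WT (1.69 (SE 0.27, adjusted p 1.82e-05)). Ihh, the main ligand of the intestine, overlapped at 171, 124 and 144 against 159 and 156 CPM (-0.10 (SE 0.16, adjusted p 0.602)). Of 14 genes of the pathway 10 fell and 2 rose, with a median of -2.24. The targets Gli1 and Ptch1 stood at 0, 0 and 0.247 and 1.94, 2.85 and 5.06 CPM in the deletion against 1.71 and 1.91 and 17.1 and 11.2 CPM in WT. Gli1 was at the floor in the deletion, at least 6.6-fold (adjusted p 0.011) lower, and Ptch1 had a log2 fold change of -2.15 (SE 0.52, adjusted p 0.0013). Without deletion replicate 1 or 2 Gli1 was not called, with fitted log2 fold changes of -4.03 and -4.09 (adjusted p 0.0504 and 0.0508). Smo, the signal transducer, stood at 9.82, 9.48 and 11.7 against 53.1 and 50.4 CPM (-2.33 (SE 0.15, adjusted p 1.12e-10)). Hedgehog targets are known to be expressed in gut mesenchyme, whose markers summed to at least 1592 CPM in the WT libraries and at most 352 CPM in the deletion libraries, and the part of this in the fall was not tested. With replicate 3 as the only deletion library 5 members fell. Without deletion replicate 3 or either WT library 1 member rose.

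In the Notch pathway the target Hes1, a repressor, stood at 1543, 1619 and 495 CPM in the deletion against 45.2 and 52.3 CPM in WT (log2 fold change 4.64, SE 0.35, adjusted p 9.07e-10). Replicate 3 held the least of the deletion libraries and was still above both WT libraries. The ligand Dll1, made by secretory precursors, went the other way, at 1.47, 1.26 and 2.22 against 40.4 and 36.2 CPM (-4.57 (SE 0.30, adjusted p 1.02e-10)). Of 17 members 7 fell and 1 rose, and the count that fell was 2 without deletion replicate 1 and 4 without deletion replicate 2 or WT replicate 1. The count was 1 with replicate 3 as the only deletion library. The receptor Notch1 was not called, at 12.8, 19.5 and 18.6 against 26.3 and 23.6 CPM (-0.56 (SE 0.21, adjusted p 0.0242)).

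The inhibitors of differentiation, Id genes, are targets of bone morphogenetic protein (BMP) signalling and were among the most changed genes by level. Id1 stood at 2463, 3059 and 2380.1 CPM against 33.6 and 35 CPM (6.26 (SE 0.34, adjusted p 1.17e-11)). Id3 stood at 1957, 1877 and 1836 against 65 and 70 CPM (4.81 (SE 0.39, adjusted p 2.19e-09)), and Id2 at 2204, 1963 and 2007 against 140.1 and 167 CPM (3.74 (SE 0.16, adjusted p 7.51e-13)). All 9 deletion values of these genes were above all 6 WT values. Of 28 genes of BMP and TGF-beta signalling 8 rose and 8 fell, or 28.6% each, near the shares of all genes. Ligands were among those that fell: Bmp7 stood at 17.9, 15.5 and 11.5 against 94.1 and 80.8 CPM (-2.54 (SE 0.20, adjusted p 1.9e-09)) and Bmp4, a ligand known from mesenchyme, at 6.34, 2.85 and 1.48 against 9.96 and 14.5 CPM (-1.75 (SE 0.54, adjusted p 0.00868)). Bmp4 was not called without WT replicate 2, at -1.46. The inhibitory Smad6 stood at 35.1, 33.3 and 44.6 against 90 and 90.6 CPM (-1.26 (SE 0.23, adjusted p 0.000102)), while the ligand Bmp2 overlapped, at 29.9, 30.1 and 35.6 against 35.4 and 35.7 CPM.

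Wnt genes and markers of intestinal stem cells were divided. Of 27 tested 11 fell, 4 rose and 12 were not called, with a median of -1.02. The stem cell receptor Lgr5 stood at 6.21, 9.23 and 4.57 CPM against 37.6 and 25.3 CPM (-2.23 (SE 0.30, adjusted p 2.09e-06)), and Smoc2, a matrix protein of the same cells, at 7.08, 9.56 and 9.51 against 36.2 and 37.4 CPM (-2.09 (SE 0.20, adjusted p 2.69e-08)). Ascl2, a transcription factor of these cells, rose from 12.4 and 12.6 to 22, 31 and 22.6 CPM (1.02 (SE 0.34, adjusted p 0.0133)), a call lost without deletion replicate 2, at 0.92, or either WT library, at 1.00 and 1.02. The Wnt target Sp5 rose from 0.101 and 0.437 to 4.41, 5.37 and 4.57 CPM (4.16 (SE 0.39, adjusted p 1.94e-08)). Sox9, a factor of progenitors, overlapped at 76.4, 93.8 and 93.7 against 93.2 and 73.3 CPM. Among 15 Wnt ligands 5 rose and 3 fell, though 3 rose without WT replicate 1 and 1 fell without deletion replicate 1 or WT replicate 2. Wnt4 stood at 214, 155 and 70.9 CPM against 2.52 and 2.89 CPM (5.76 (SE 0.56, adjusted p 2.94e-08)), and E16 forestomach held 131 ± 25.5 CPM (SD, n = 2). Wnt11 stood at 14.6, 10.8 and 6.42 against 0.553 and 1.26 CPM (3.56 (SE 0.45, adjusted p 1.15e-06)). Of 10 Frizzled receptors 4 rose and 3 fell, and Fzd5 stood at 63.1, 79.5 and 68.4 against 12.9 and 13.7 CPM (2.40 (SE 0.23, adjusted p 2.71e-08)).

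Genes known from fetal or regenerating intestinal epithelium included some of the largest changes by level. Of 16 tested 8 rose, 2 fell (1 without deletion replicate 2 or WT replicate 1) and 6 were not called, with a median of 1.58. Clu, the secreted chaperone clusterin, stood at 5864, 3824 and 2504 CPM against 36.3 and 25.7 CPM (7.03 (SE 0.31, adjusted p 1.21e-12)), and Anxa1, an annexin, stood at 2632, 2290.4 and 1197 against 50.4 and 46.4 CPM (5.40 (SE 0.30, adjusted p 1.72e-11)). Replicate 1 was the highest and replicate 3 the lowest in both genes, and neither overlapped WT. These genes are also expressed in E16 stomach, with Clu at 1150.4 ± 12.4 CPM (SD, n = 2) in hindstomach and Anxa1 at 1248 ± 9.92 CPM (SD, n = 2) in forestomach. Cyr61, a matrix protein and target of the Hippo pathway's effectors, fell from 1016 and 1056 to 467, 382 and 103 CPM (-1.71 (SE 0.36, adjusted p 0.000419)).

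Of 31 cell cycle genes 9 rose and 9 fell, or 29.0% each, near the shares of all genes, 23.9% and 27.6%. Birc5, Cenpa and Cdk1, which act in mitosis, stood at 679.6, 889.9 and 766, at 361, 401 and 313 and at 514, 619 and 520.5 CPM in the deletion against 127 and 128, 59.9 and 59.8 and 100.3 and 103 CPM in WT. Their log2 fold changes were 2.61 (SE 0.14, adjusted p 1.57e-11), 2.58 (SE 0.12, adjusted p 2.4e-12) and 2.44 (SE 0.13, adjusted p 1.06e-11). The replicative helicase subunits Mcm2, Mcm4 and Mcm6 fell by 1.84, 2.15 and 2.21 on the log2 scale (adjusted p 1.52e-10, 4.25e-10 and 1.44e-11). Ccnd2, a G1 cyclin, rose (2.71 (SE 0.15, adjusted p 1.06e-11)), and the other G1 cyclin Ccnd3 fell (-1.91 (SE 0.12, adjusted p 9.05e-11)), as did the inhibitor Cdkn1c (-2.59 (SE 0.15, adjusted p 2.13e-11)). Pcna, the replication clamp, Top2a, a topoisomerase, and Ccna2, the S phase cyclin, were not called. 

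Hox genes mark position along the body axis. Of 35 tested 11 rose and 2 fell, though 6 rose without WT replicate 1 and 7 without WT replicate 2, and 1, 5 and 4 fell without deletion replicates 1, 2 and 3. Hoxc4 and Hoxc5 stood at 66, 47.6 and 30 and 67.2, 55.4 and 35.4 CPM against 1.16 and 1.2 and 0.906 and 0.819 CPM (5.34 (SE 0.45, adjusted p 1.17e-08) and 5.93 (SE 0.92, adjusted p 3.08e-05)). The neighbours Hoxc6 and Hoxc8, picked after their values were seen, had log2 fold changes of 4.70 (SE 1.14, adjusted p 0.0017) and 6.86 (SE 1.13, adjusted p 7.06e-05). In E16 forestomach Hoxc5 stood at 81.8 ± 2.24 CPM (SD, n = 2) and in hindstomach at 2.72 ± 0.163 CPM (SD, n = 2). Hoxb5 fell from 9.11 and 8.84 to 0.668, 1.09 and 0.371 CPM (-3.62 (SE 0.42, adjusted p 3.27e-07)). Of 14 genes of the hindgut and colon list 4 rose, 3 fell and 7 were not called, with a median of 2.64, or 1.23 with floor genes at their bound, and 2 rose with replicate 3 as the only deletion library. Prdx6, a peroxiredoxin, rose from 381 and 376 to 1417, 1284 and 1022 CPM (1.71 (SE 0.13, adjusted p 5.92e-10)) and made up most of the summed level of the list, which was 1066 to 1470.1 CPM in the deletion and 496 and 512 CPM in WT. Car4, a carbonic anhydrase, stood at 12.7, 9.48 and 2.47 CPM with no count in WT, at least 52.2-fold (adjusted p 1.49e-05) higher. Ang4, an antimicrobial ribonuclease of Paneth cells, stood at 29.4, 37.7 and 0.741 against 1.26 and 1.2 CPM (4.20 (SE 1.02, adjusted p 0.00157)), and replicate 3 was below WT in it. The fourth held at most 7 counts in any of the 5 libraries. Slc26a3, a chloride exchanger, stood at 2.81, 2.94 and 3.46 against 83.2 and 68.8 CPM (-4.65 (SE 0.21, adjusted p 4.92e-11)).

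Genes of lung, liver and pancreas showed no common direction, with 6 higher and 5 lower of 23. Without WT replicate 1 these counts were 3 and 3, and 3 were lower without deletion replicate 2 or WT replicate 2. The transthyretin gene Ttr rose from 36.4 and 34.1 to 499.8, 910.0 and 866 CPM (4.43 (SE 0.25, adjusted p 2.28e-11)), and the serum iron carrier Trf fell from 260.0 and 227 to 8.95, 3.52 and 23.5 CPM (-4.40 (SE 0.43, adjusted p 2.82e-08)). The pancreatic carboxypeptidase Cpa1 stood at 4.01, 40.7 and 77.1 CPM in deletion replicates 1 to 3 against 135 and 105 CPM in WT (-1.60 (SE 0.58, adjusted p 0.0253)), and replicate 1 was far below replicates 2 and 3. Cpa1 was not called without deletion replicate 2 or WT replicate 1, at -1.52 and -1.41, nor in DESeq2, at -1.42 (adjusted p 0.0773). Among Sox and Fox factors outside the foregut list, Sox5 and Sox11 stood at 14.4, 13 and 12.5 and 78.1, 74.5 and 82.9 CPM against 0 and 0.273 and 7.4 and 7.59 CPM (6.60 (SE 0.67, adjusted p 5.61e-08) and 3.39 (SE 0.18, adjusted p 7.94e-11)), and the endoderm factor Foxa2 at 35.7, 24.2 and 23.5 against 2.16 and 1.58 CPM (3.89 (SE 0.36, adjusted p 1.57e-08)).

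Gene sets were also taken from WT libraries outside the comparison, at E14 and E18. The labels of the E18 libraries name villi freed with EDTA and no Epcam sort. Of 436 genes higher in E14 small intestine than in both parts of the stomach, 285 fell and 38 rose in the deletion at E16, with a median of -2.30. Of 354 genes higher in E14 forestomach than in the other organs 184 rose and 67 fell, with a median of 1.41. The set of E14 hindstomach was nearly even, with 93 higher and 81 lower of 239 and a median of 0.27. Of 173 genes shared by both stomach regions at E14 82 rose and 27 fell, with a median of 0.99. Of 4119 genes that WT intestine gains from E14 to E18, 1633 fell and 705 rose, and of 4563 genes that it loses, 1194 fell and 1433 rose. The medians of these last sets were -0.75 and 0.14, beside -0.10 for all genes.

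Outside the lists, the gene that gained most CPM was Tmsb4x, an actin-binding thymosin, at 26175, 54991 and 44741 CPM against 1613 and 1688 CPM (4.67 (SE 0.24, adjusted p 5.18e-12)). The next was Malat1, a nuclear noncoding RNA, at 12616, 21756 and 16674 against 678 and 729 CPM (4.60 (SE 0.46, adjusted p 4.26e-08)). Gsta4, a glutathione transferase, stood at 7737, 10522 and 7943 against 40.4 and 38.8 CPM (7.79 (SE 0.18, adjusted p 4.89e-16)). Lars2, a mitochondrial leucyl-tRNA synthetase, was also among the 6 largest gains, at 671, 3156 and 15034 against 635 and 524 CPM (3.44 (SE 0.77, adjusted p 0.000707)), and without deletion replicate 3 the gene Lars2 was at 1.73. Among genes outside the lists that met the naming rule, the largest fitted fold change upward was that of Mir6236. This gene, named as a microRNA, stood at 80.5, 354 and 1825 against 0.0503 and 0 CPM (adjusted p 5.03e-06). Replicate 3 held far more of Lars2 and Mir6236 than replicates 1 and 2, and RNA quality was not tested. Other large fold changes upward outside the lists were also those of genes near 0 in WT, among them Sptssb, a subunit of the first enzyme of sphingolipid synthesis, at 1671, 2382 and 1514 CPM against 0 and 0.983 CPM (11.92 (SE 0.60, adjusted p 4.31e-12)). Bpifb1, a secreted protein of airway and stomach mucosa, stood at 6298, 5804 and 3837 against 1.81 and 1.8 CPM (11.52 (SE 0.32, adjusted p 1.66e-13)) and at 3412 ± 201 CPM (SD, n = 2) in hindstomach. The largest losses of CPM outside the lists were those of Cps1 and Oat, mitochondrial enzymes of citrulline and ornithine metabolism in fetal enterocytes. Cps1 stood at 8.68, 10.1 and 86.6 CPM against 3788 and 3356 CPM (-6.71 (SE 0.74, adjusted p 1.54e-07)), and Oat at 220.3, 175 and 467 against 3328 and 3336 CPM (-3.54 (SE 0.25, adjusted p 3.34e-10)). Replicate 3 held the most of both among the deletion libraries. Mcoln3, a lysosomal channel of the suckling enterocyte, was at the floor in each deletion library and stood at 76.7 and 70.4 CPM in WT.

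The 3 deletion libraries were not alike in all genes. In 24 genes replicates 1 and 2 stood above 5 CPM and replicate 3 held 3 counts or fewer, and 17 of these were called higher and 2 lower. They include 5 Paneth cell defensins or defensin-like genes, picked like the others of this paragraph after their values were seen. Gm15284 stood at 138, 263 and 0 CPM in the deletion against 40.6 and 46.1 CPM in WT and was not called, and AY761184 at 86.7, 161 and 0.124 against 5.74 and 4.86 CPM (3.97 (SE 1.07, adjusted p 0.00386)). AY761184 was not called in DESeq2, at 4.10 (adjusted p 0.0621), and was lower with replicate 3 as the only deletion library, at -5.27. Itln1, a lectin of goblet and Paneth cells, stood at 133, 151 and 0 against 40.7 and 30.3 CPM, and Cyp3a11, a cytochrome P450, at 67.9, 54.6 and 0 CPM with no count in WT. The reverse, above 5 CPM in replicate 3 and 3 counts or fewer in replicates 1 and 2, was found in 4 genes. A further 6 genes were absent from replicate 1 in the same sense and present in 2 and 3, among them the pancreatic proteases Cela3b, at 0, 66.4 and 45.1 CPM, and Prss1, at 0, 12.9 and 37.3 CPM. No gene was missing in this way from replicate 2. Without replicate 3, Gm15284 and Itln1 were called higher, with log2 fold changes of 2.21 and 2.00.

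**Figure D4:**
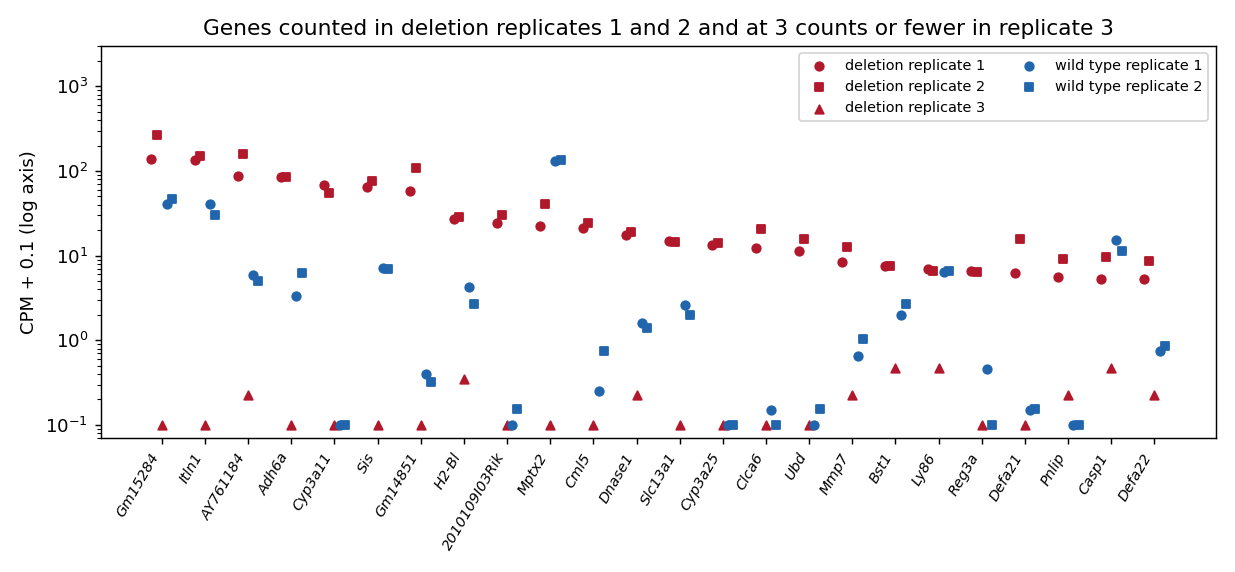
Level of the 24 genes above 5 CPM in deletion replicates 1 and 2 and at 3 counts or fewer in replicate 3, as CPM + 0.1 on a log axis, in each deletion library (red) and WT library (blue). The red triangles of replicate 3 lie at the bottom of the plot, and the WT libraries lie below replicates 1 and 2 in most genes but above them in Mptx2 and Casp1.

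The fold change also went with the length of a gene on the genome. Spans came from RefSeq (GRCm38.p6) for 17161 genes, or 99.5% of those tested, and were split into 10 equal groups. In the group of the shortest genes, up to 3.77 kb, the median log2 fold change was 1.45, with 46.3% of genes higher and 12.8% lower. The ninth group had a median of -0.62, with 13.7% higher and 34.5% lower. The tenth group, of the longest genes, turned back, with a median of -0.45, 14.8% higher and 28.9% lower. Of 80 cytosolic ribosomal protein genes, of a median length of 3.17 kb, 59 rose and 1 fell, and their median of 1.58 was 0.50 once that of their length groups was taken off. Housekeeping genes of greater length were also higher: 31 of 35 NADH dehydrogenase subunits (7.8 kb) rose and 1 fell, and 35 of 48 proteasome subunits (11.9 kb) rose and 2 fell. Their medians of 2.38 and 1.47 were still 1.97 and 1.46 with the length groups taken off. Of 43 collagens, which are long, 20 fell and 5 rose, beside the fall of mesenchyme markers given above. With the median of its length group taken from each gene's fold change in the model, 8345 genes were called. The intestinal factor list then had 15 members lower and 4 higher, the foregut factor list 16 higher and 1 lower, the gastric list 23 higher and 1 lower, and the squamous list 23 higher and none lower. The Hox list, of short genes, went to 6 higher and 4 lower. Of the genes named here, Apoa1 was then called lower, at -2.09, and Foxp1 and Top2a higher, at 1.40 and 1.16. Calls were lost for Klf4 and Elf3, at 0.98 and 0.73, for Ltc4s, at 1.17, for Smad6, Dsc2 and Itgb4, at -0.64, -1.13 and -0.70, and for Ascl2, whose value turned to -0.43.

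**Figure D5:**
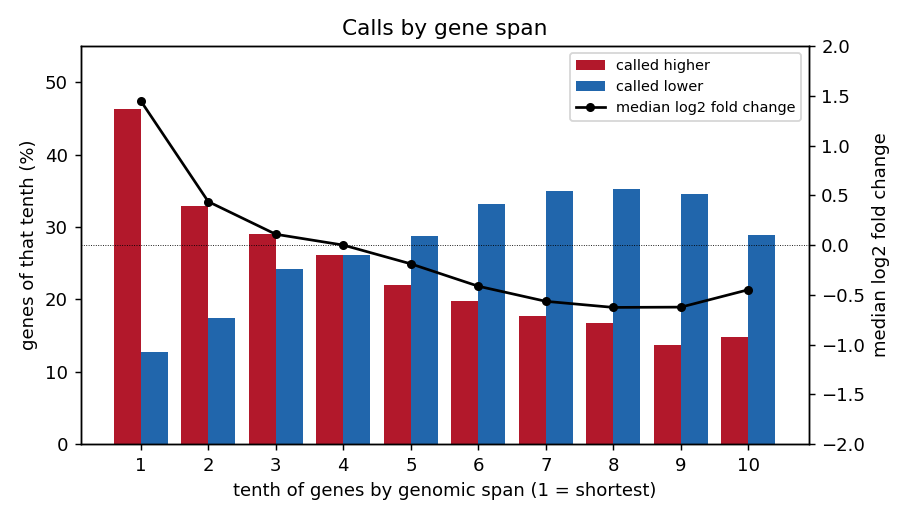
Share of genes with a call in each direction (bars, left axis, percent) and median log2 fold change (line, right axis) in 10 equal groups of genes ordered by genomic span, shortest on the left. The share called higher goes from 46.3% in the shortest group to 13.7% in the ninth, and the median from 1.45 to -0.62, and the tenth stands at 14.8% and -0.45.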

How the data were processed

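RNA-seq was measured in 3 libraries of the E10 deletion and 2 of E16 WT small intestine. Groups and replicate numbers came from the sample titles. The values are raw read counts per gene symbol as the authors deposited them, whole numbers with no normalization. Per the labels' protocols, cDNA was made with a SMARTer-Seq v4 kit, and reads were single, of 75 bp. The submitters' processing notes name STAR 2.5.3a, HTSeq, Bowtie2, MACS2 and the build mm9, with no role for each. The strand setting of the counting is not given in the sources used here, so overlapping, antisense and near-identical genes, such as the defensins, are uncertain. Of 33 columns, 2 match no sample and were not used, nor were 4 of adult ileum. The 2 rows with no gene name are blank in the embryonic columns and were left out.

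The test was glmQLFTest after glmQLFit in edgeR (version 4.0.16, R 4.3.3), on counts scaled with TMM and filtered by filterByExpr with its minimum of 10. The model held all 27 embryonic libraries in 13 groups, which shared its estimate of the spread, with no replicate block. The filter kept 17239 of 24015 genes. Adjusted p-values are Benjamini-Hochberg over all 17239. A standard error is the size of the log2 fold change divided by the root of the F statistic, and CPM are counts over the TMM-scaled total. A fold against a group in which every library held 3 counts or fewer was computed from those 3 counts per library and is a lower bound. Floors cover counting error only, as the reads carry no molecular identifiers. On simulated counts, 73 of 100 genes changed by 1.5 and 80 of 100 changed by 2 on the log2 scale were called among 16661 tested, with 3 false calls. The number of false calls with 51.5% of genes changed, the share called in the data, was not tested. Gene lists are described by counts and medians, with no test of a list.

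The members and gene lists were chosen with earlier results of these data known. From lists of up to 15 tested members any could be named. From longer ones the text names up to 5 called members per direction with the largest fold change, among genes whose average log2 CPM is 2 or more and whose groups do not overlap, and up to 3 abundant members not called. Outside the lists it names genes from the 12 largest fold changes and the 6 largest CPM changes per direction. Genes outside this rule are said to be picked after their values were seen; these are also the markers Epcam, Col1a1, Acta2, Xist and Tmprss15. Promoters and gene spans came from RefSeq tables of GRCm38.p6. Their coordinates were not joined to the deposited counts. The alternatives tried were RLE scaling, DESeq2 1.42.0, no filter, a fit of the 5 libraries alone, no fold minimum, a replicate block, thinning to the shallowest total and leaving out each library. A fit with replicate 3 as the only deletion library, whose spread is then assumed to be that of the other groups, and a gene length offset were chosen after seeing the data. A few listed genes are not reported here by name.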

Additional observations from a re-analysis of the deposited data

How the results depend on the processing

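The counts of 8875 genes called, 4122 higher and 4753 lower, stayed within 1.5 times under the 14 alternatives, and 6834 to 8875 of the called genes were shared with each. Leaving out 1 library gave 8098 to 8985 called, 3703 to 4157 higher and 4318 to 4828 lower. RLE scaling and DESeq2 moved the median of all genes by 0.14 and the length offset by 0.19 (log2), and each made calls higher the larger group, as did replicate 3 as the only deletion library (7312 called, 3762 higher and 3550 lower). The fit without a fold minimum called 10871 genes. Of 175 genes named in the text, 142 were called, and 131 of all named kept their call and direction throughout. Of the called genes the sign turned in 4: with replicate 3 as the only deletion library AY761184 was at -5.27, Sis at -10.49 and Ang4 at -0.63, and with the length offset Ascl2 was at -0.43. Of those not called, Gm15284, Itln1 and Zg16 turned and were called lower with replicate 3 alone, at -13.12, -12.83 and -4.13. Replicates share only a number: over genes, the difference of replicates 1 and 2 in the deletion correlated with that in WT at r = 0.0049. With the replicate block 8932 genes were called, 4120 higher and 4812 lower; Xist (-4.75), Fabp1 (-1.16), Gm15284 (2.14), Itln1 (2.01), S100g (1.21) and Zg16 (1.71) gained a call and Isl1 (1.70) lost it. Deletion replicate 3 is the only library with that number, so the block absorbs it, and these are also the 6 calls gained and the 1 lost without that library. With replicate 3 as the only deletion library some named genes lost a call (Ang4, Ascl2, Cpa1, Cyp3a11, Dsc2, Eif2s3y, Elf3, Gli1, Isl1, Klf5, Ptch1, Smad6, Tac1, Tfap2c, Tmprss15, Treh and Trpv6) and Foxp1, Lor, Pyy and Sst gained one. In a fit of the 5 libraries alone Cpa1, Sis and Trpv6 lost theirs. In DESeq2, Sis, Cpa1, Muc2, Slc9a3, AY761184 and Cyp3a11 were not called, while Nkx6-3, Foxp1, S100g and Lor were. Depth limits genes near 3 counts, which correspond to 0.151 to 0.371 CPM.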

Other observations

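In 2252 genes, or 13.1% of those tested, all 3 deletion libraries stood above all 24 other embryonic libraries, and in 1430, or 8.30%, they stood below all of them. In 16 genes each deletion library held 3 counts or fewer while each of the 12 other embryonic groups had a mean of at least 2 CPM. They include Zfp488, a zinc finger factor, and Adamts13, the protease that cuts von Willebrand factor, with no count in any deletion library and lowest means of 6.15 and 4.33 CPM among the other groups. They also include Adarb2, a brain relative of the RNA-editing enzymes, with 1 count over the 3 deletion libraries and a lowest mean of 8.45 CPM, and predicted genes such as Gm17821, with 1 count and a lowest mean of 12.1 CPM. The other groups hold WT libraries of another strain and intestine with Cdx2 deleted at E13 or E15, so these 16 genes were not tested for strain. In the E13 and E15 deletions Zfp488 stood at 29 and 30.1 CPM, and Adamts13 at 7.18 and 28.8 CPM.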
